A study of Homo sapiens with 4 samples.

Results

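The 9 genes described here are p53 target genes and partners that lie outside the CDK inhibitors: MDM2, MDM4, TP53INP1, SESN1, SESN2, BBC3, FAS, GADD45A and GDF15. They were taken by name from the 60623 genes of the deposited table, each name matched a single row, and all 9 had enough counts to be among the 14862 genes tested. RNA came from T24, an established line of human bladder cancer grown in RPMI medium with 10% serum. There were 2 libraries of control cells (control replicates 1 and 2) and 2 libraries of cells overexpressing CBX7, a chromobox subunit of Polycomb repressive complex 1 (CBX7 replicates 1 and 2). The full-length CBX7 was cloned into a FLAG-tagged expression plasmid. Neither the labels nor the methods state which vector the control cells carried, whether the cells were pooled or 1 clone, or whether the libraries came from separate cultures, so the p-values measure only the spread between these libraries, which may be technical.

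As background, p53 is a transcription factor that is stabilised by DNA damage and other stress, binds a consensus element made of paired 10-base units, and activates genes for cell cycle arrest, repair and apoptosis. MDM2 is an E3 ubiquitin ligase that degrades p53 and is itself a p53 target, which closes a feedback loop, and MDM4 is its partner that restrains p53 transcriptional activity. T24 cells are known to lack wild-type p53, so the question here was at what basal level the target genes are transcribed in such cells and whether overexpression of CBX7 moved any of them. Several targets are also induced without p53, GADD45A, SESN2 and GDF15 among them through the ATF4 stress response.

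Start site windows of 3 members are shown because they hold a match to the p53 consensus, the whole element in MDM2 and FAS and a single 10-base unit in SESN1. Windows running from 250 bases before to 50 bases after an annotated transcript start were taken from RefSeq (GRCh38.p14), and 7 of the 9 members had at least 1 such window, 14 in all (the exceptions were GADD45A and TP53INP1). The deposited table holds no coordinates, so these positions are those of the reference and not of the authors' files, for which the processing notes name hg19. A 20-base p53 consensus element, that is 2 adjoining decamers with no spacer, was searched with at most 2 mismatches, none of them at the C and G of either core, a rule chosen after the windows had been read. The element equals its own reverse complement, so 1 search covers both strands. It was found in windows of 2 of the 7 members, MDM2 and FAS, and in 0.359% of all 27305 genes with a window. A single decamer without mismatch was found in windows of 2 members, FAS and SESN1, and in 8.06% of all genes. The MDM2 and FAS elements each had 2 mismatches, the most allowed. Since the members were chosen as p53 targets and the rule after their windows were read, these shares are not a test.

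MDM2 has an upstream start and a start within its first intron, and only the windows of the second hold the element. The windows follow in the direction of transcription, with the 20-base element, or in SESN1 the decamer, in capitals. The first is the upstream MDM2 window at chr12:68807922-68808221 (plus strand), which has no match. The next is the intronic MDM2 window at chr12:68808767-68809066 (plus strand), whose element lies before the transcript start, in an intron of 7 of the 34 annotated transcripts, outside the other 27. The FAS window at chr10:88991181-88991480 (plus strand) holds its element upstream of an internal start, in an intron of 11 of 20 transcripts and in an exon of 2. The SESN1 window at chr6:109008939-109009238 (minus strand) holds the decamer upstream of the start. The 10 bases that follow this decamer keep the C and G of a second core. They have more than the 2 mismatches allowed, so no whole element was marked there.
MDM2 upstream start: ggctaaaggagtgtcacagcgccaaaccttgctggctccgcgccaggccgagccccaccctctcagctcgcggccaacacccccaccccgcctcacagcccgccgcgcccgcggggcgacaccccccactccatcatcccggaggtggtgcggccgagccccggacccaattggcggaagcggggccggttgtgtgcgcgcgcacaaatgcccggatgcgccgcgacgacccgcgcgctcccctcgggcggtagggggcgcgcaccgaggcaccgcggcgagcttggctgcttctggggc
MDM2 intronic start: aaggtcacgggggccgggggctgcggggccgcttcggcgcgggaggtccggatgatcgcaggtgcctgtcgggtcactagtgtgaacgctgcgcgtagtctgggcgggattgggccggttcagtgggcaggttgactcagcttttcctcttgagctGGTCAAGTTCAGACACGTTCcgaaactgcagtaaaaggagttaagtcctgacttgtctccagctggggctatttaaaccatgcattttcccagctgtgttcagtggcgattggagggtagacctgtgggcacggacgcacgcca
FAS internal start: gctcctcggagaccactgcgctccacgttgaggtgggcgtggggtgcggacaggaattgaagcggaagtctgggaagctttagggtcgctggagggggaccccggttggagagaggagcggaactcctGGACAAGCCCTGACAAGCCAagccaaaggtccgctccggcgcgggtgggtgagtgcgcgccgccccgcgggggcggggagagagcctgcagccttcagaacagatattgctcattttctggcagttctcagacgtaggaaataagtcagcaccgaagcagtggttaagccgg
SESN1 internal start: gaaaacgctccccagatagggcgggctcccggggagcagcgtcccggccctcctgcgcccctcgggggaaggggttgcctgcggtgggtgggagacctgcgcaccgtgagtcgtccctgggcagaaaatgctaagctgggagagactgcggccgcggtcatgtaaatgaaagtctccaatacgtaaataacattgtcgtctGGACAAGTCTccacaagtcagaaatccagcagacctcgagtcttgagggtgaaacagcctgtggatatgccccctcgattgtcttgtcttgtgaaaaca
A match is a description of letters and not evidence of binding in these cells, and no match says only that these letters are not in the window. The counts are per gene, so transcripts from the upstream and the intronic MDM2 start were not separated.

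The summed counts lay between 20800910 and 25135488 per library. CBX7 itself was listed at 4.98 and 3.73 TPM in control libraries and at 610.09 and 607.25 TPM in CBX7-overexpressing cells, so all 4 labels matched the overexpressed gene. TPM is a relative transcript abundance scaled by length, and it is the main scale used here to compare 1 gene with another. Depth-normalised counts are given beside it for some comparisons. Of the urothelial markers, UPK1A, UPK1B, UPK2, UPK3A, KRT20 and KRT5 were at no more than 0.27 TPM in any library and the adhesion gene CDH1 was also near 0, while PPARG was at 23.9 TPM and the keratin genes KRT8 and KRT18 were abundant, at 900 and 1184 TPM on average. The mesenchymal genes VIM and CDH2 were at 2479 and 48.4 TPM on average, and the epithelial gene EPCAM at 1.19 TPM. GATA3, the remaining urothelial marker, was rare, at 0.17 and 0.35 TPM in control and 0.25 and 0.82 TPM in CBX7-overexpressing cells. On the CPM scale its groups did not overlap, with 0.126 and 0.191 against 0.58 and 0.985 CPM, a 4.84-fold difference with a 95% interval from 1.83-fold to 12.8-fold. Its p was 0.00778 before and 0.602 after adjustment in edgeR's test. CBX7 replicate 1 stood apart in a trend with gene length that touches several results below. Its log2 ratio to control replicate 1 correlated with the deposited gene length at a Spearman rho of -0.622 over the 11077 genes averaging 100 counts or more, against 0.0424 for the replicate 2 libraries. These correlations are across genes, which are not independent replicates.

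The basal levels of the 9 genes spanned more than 2 orders of magnitude, from GADD45A with a mean of 158 TPM over the 4 libraries to TP53INP1 with 0.837 TPM. Their order by mean TPM was GADD45A, MDM2, FAS, GDF15, SESN2, BBC3, MDM4, SESN1 and TP53INP1, and it was the same in control and in CBX7-overexpressing cells and when the level was computed as depth-normalised counts (CPM, TMM-scaled) per kilobase of deposited length. GADD45A exceeded MDM2 4.26-fold, FAS exceeded GDF15 5.36-fold, BBC3 exceeded MDM4 1.48-fold and SESN1 exceeded TP53INP1 2.41-fold in mean TPM, and in each of these neighbouring pairs the ranges over the 4 libraries did not overlap. Per kilobase of deposited length the gaps were other, with 100 CPM for GADD45A against 54 for MDM2 and 13.8 for FAS against 3.93 for GDF15. In TPM the ranges of the other neighbours overlapped, although MDM2 was above FAS, SESN2 above BBC3, and MDM4 above SESN1 within each of the 4 libraries. GDF15 was above SESN2 in each of them as well except 1, control replicate 2. Among all genes tested, GADD45A stood at the 94.4th percentile of mean TPM and TP53INP1 at the 10.5th.

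**Figure D1:**
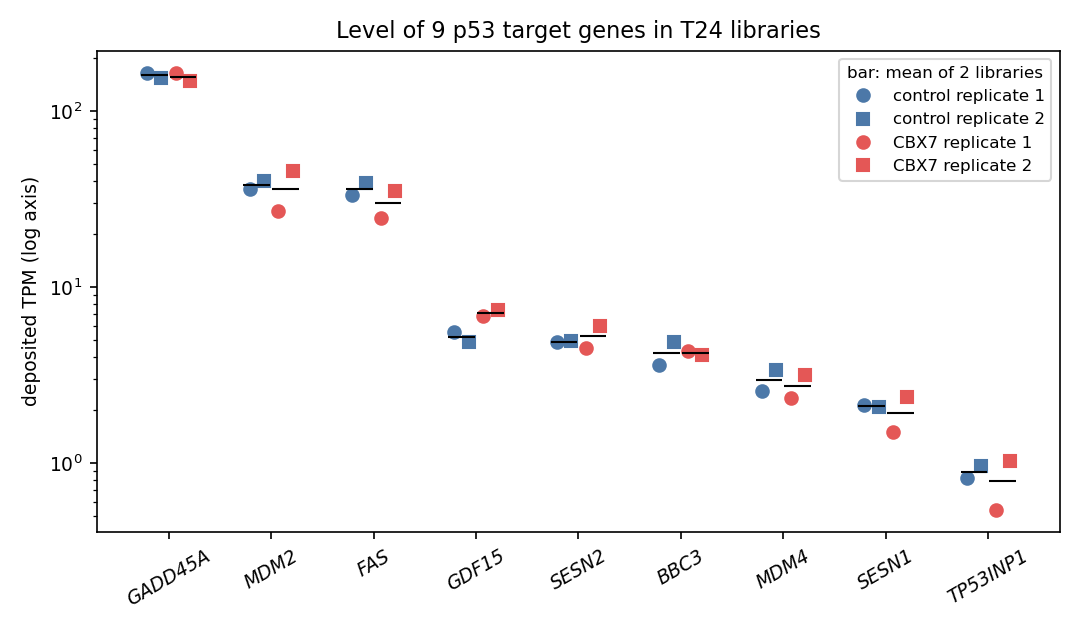
Deposited TPM (log axis) of the 9 p53 target genes, ordered by their mean, in 2 control and 2 CBX7-overexpressing T24 libraries, with 1 point per library and a bar at the mean of each group. GADD45A lies at 149 to 166 TPM and TP53INP1 at 0.54 to 1.03 TPM, and CBX7 replicate 1 is the lowest point for MDM2, FAS, SESN2, MDM4, SESN1 and TP53INP1.

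None of the 9 genes changed with CBX7 at an adjusted p under 0.05 by edgeR (quasi-likelihood test, Benjamini-Hochberg adjustment over all genes tested), against a background of 0.0202% of genes called. These are bulk libraries, in which fewer cells of a kind and less RNA per cell cannot be told apart. DESeq2's Wald test also called 0 of the 9, against 0.451% of all genes, and the other fits to all 4 libraries called 0 as well, where between 0.0147% and 2.77% of all genes passed. TP53INP1 was under the TPM minimum of the limma fits, which tested 8 members. At an unadjusted p under 0.05 there was 1 member of 9, GDF15, against 4.74% of all genes. The log2 fold changes of the members ran from -0.20 for MDM4 to 0.56 for GDF15, 4 lay above and 5 below 0, and their median was -0.02, against 0.0017 over all genes tested. The 95% interval of the fold change stayed within 2-fold in either direction for 8 of the 9 members, all but GDF15, as it did for 75.6% of all genes tested. Groups that did not overlap on the CPM scale were seen for 4 of the 9 members, against 30.2% of all genes. CBX7-overexpressing cells were higher in 2 of them (15.4% of all genes) and lower in 2 (14.8%). For a single gene at this group size the smallest two-sided p of an exact permutation test is 0.333, and the p-values printed here draw on a spread shared across genes. Without CBX7 replicate 2, where the remaining CBX7 library is assumed to vary like the controls, 3 members passed, but so did 35.5% of all genes. GADD45A and GDF15 were the 2 higher ones (18.3% of all genes) and MDM4 the lower one (17.3%).

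**Figure D2:**
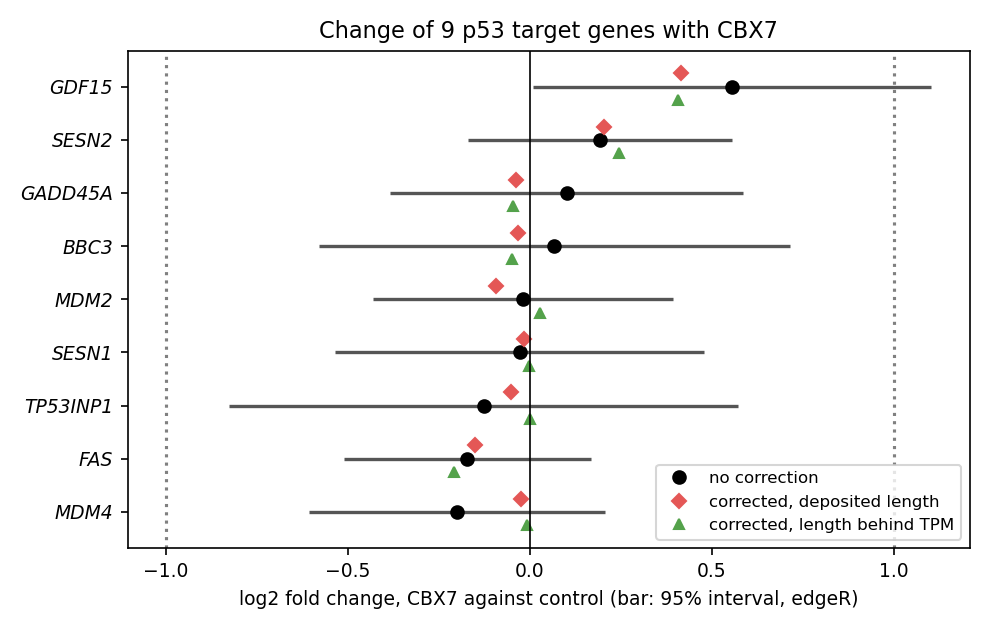
Log2 fold change of each member between CBX7-overexpressing and control cells from edgeR, with its 95% interval as a bar, and the same value once the library trends with deposited length were removed (diamonds) or with the length behind the TPM values (triangles), that is the length implied by counts and TPM. Dotted lines mark a 2-fold change, and the interval of GDF15 is the only one that crosses one of them.

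Among the regulators of p53, MDM2 (ENSG00000135679, chromosome 12 of GRCh38 from 68808176 to 68850686) was at 35.89 and 40.31 TPM in control libraries and at 26.91 and 45.41 TPM in CBX7-overexpressing cells. The CBX7 libraries thus lay on either side of both control libraries, and on the CPM scale they did so as well, with 82.1 and 105 CPM against 92.8 and 97.1 CPM. MDM2 had a log2 fold change of -0.02 ± 0.17 (standard error, adjusted p = 0.986, edgeR), and its 95% interval ran from 0.742-fold to 1.31-fold. MDM4 (ENSG00000198625, chromosome 1 from 204516379 to 204558120) was at 2.58 and 3.37 TPM in control libraries and at 2.33 and 3.15 TPM in CBX7-overexpressing cells, so its groups overlapped on this scale. On the CPM scale both CBX7 libraries were below both controls, with 13.8 and 17.1 CPM against 17.6 and 17.9 CPM, most of the gap being in CBX7 replicate 1. MDM4 had a log2 fold change of -0.20 (standard error 0.16, adjusted p = 0.951, edgeR).

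Within each library, MDM2 exceeded MDM4 13.9-fold and 12-fold in the control replicates and 11.5-fold and 14.4-fold in the CBX7 replicates on the TPM scale. The groups overlapped in this ratio. In CPM, which is not scaled by length, the ratio was 5.27 and 5.43 in the control replicates and 5.94 and 6.19 in the CBX7 replicates, without overlap, a difference that was not tested. The MDM2 values carry a further limit from the annotation. The deposited length of MDM2 is 1748 bases, while the length that its counts and TPM values imply was between 3960 and 4150 bases, and the longest of its 34 transcripts in GENCODE release 29 has 12633 bases. By deposited length MDM2 was at 54 and MDM4 at 1.65 CPM per kilobase, so the size of their ratio rests on the length used. The implied length of MDM4 varied between libraries, from 8049 bases in CBX7 replicate 1 to 10948 in control replicate 1, against 10050 deposited. Its TPM, and with it the TPM ratio, carries this variation. Counts of MDM2 were not whole in any library, and a processed pseudogene, AC025423.2, shares 439 exonic bases with it and had between 80.64 and 113.28 counts. On the opposite strand, the antisense gene AC025423.4 shares 785 exonic bases with MDM2 and had between 0 and 59.4 counts, and the carboxypeptidase gene CPM shares 133 and had between 32 and 36.01. For FAS the implied length, 2364 to 2545 bases, was also unlike the deposited 3696, whereas for GADD45A (1332 to 1360 implied, 1352 deposited) and GDF15 (1182 to 1206 implied, 1200 deposited) they were close.

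GDF15 was the member with the largest difference. It encodes a secreted cytokine of the TGF-beta superfamily that rises under many kinds of cellular stress (ENSG00000130513, chromosome 19 from 18374731 to 18389176). It was at 5.57 and 4.86 TPM in control libraries and at 6.89 and 7.36 TPM in CBX7-overexpressing cells, so both CBX7 libraries lay above both controls. On the CPM scale it was at 4.15 and 3.48 CPM against 6.13 and 5.10 CPM, again without overlap, and the underlying counts were 99, 73, 148 and 114. The log2 difference of GDF15 was 0.56 with a standard error of 0.22, that is 1.47-fold, and its 95% interval ran from 1.01-fold to 2.15-fold. Its p was 0.0472 before and 0.951 after adjustment in edgeR's test. The difference therefore did not pass the test across all genes. The log2 ratio of CBX7 to control was 0.56 for replicate 1 and 0.55 for replicate 2. GDF15 is the shortest member, and once the library trends with deposited length were removed its log2 fold change was 0.42 (adjusted p = 0.779, edgeR).

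The genes whose centred log2 CPM over the 4 libraries lay nearest to that of GDF15, among those 11077 genes, were SLC4A11, SH2B2 and FP671120.4, at a root mean square distance of 0.0334, 0.0402 and 0.0417. For MDM2 they were SYTL4, POLR1B and RBMS2, at 0.00598, 0.00717 and 0.00971. With 4 libraries such likeness is a description only.

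GADD45A, of the growth arrest and DNA damage group, encodes a small nuclear stress protein that binds PCNA and CDK1 and activates stress kinases (ENSG00000116717, chromosome 1 from 67685061 to 67688338). Its level was 165.66 and 154.49 TPM in control libraries and 164.31 and 148.52 TPM in CBX7-overexpressing cells, so the groups overlapped. On the CPM scale CBX7 replicate 1 was the highest of the 4 libraries with 164 CPM and CBX7 replicate 2 the lowest with 117 CPM, against 138 and 125 CPM in control cells. The log2 fold change of GADD45A was 0.10 with a standard error of 0.20 (adjusted p = 0.951, edgeR), and it was -0.04 after the correction for deposited length and -0.03 when TPM values were tested in limma, so its sign depended on how length was treated. Its paralog GADD45B was at 26.0 TPM on average and GADD45G near 0 at a mean of 0.05 TPM. GADD45A exceeded GADD45B between 5.68-fold and 6.51-fold within the 4 libraries.

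The sestrins reduce oxidative stress and restrain mTORC1 signalling, and SESN2 senses leucine. SESN2 (ENSG00000130766, chromosome 1 from 28259527 to 28282491) was at 12.4 and 12 CPM in control libraries and at 13.5 and 14.5 CPM in CBX7-overexpressing cells. The groups did not overlap on this scale, but on the TPM scale they did, with 4.88 and 4.93 TPM against 4.5 and 6.02 TPM. The log2 fold change of SESN2 was 0.19 with a standard error of 0.15 (95% interval 0.889-fold to 1.47-fold, adjusted p = 0.951, edgeR). SESN1 (ENSG00000080546, chromosome 6 from 108986437 to 109094819), whose internal start window holds the p53 decamer shown above, was at 2.13 and 2.09 TPM in control libraries and at 1.49 and 2.36 TPM in CBX7-overexpressing cells. The CBX7 libraries lay on either side of both controls, and the log2 difference was -0.03 ± 0.20 (± standard error, adjusted p = 0.983, edgeR). The ratio of SESN2 to SESN1 in TPM was 2.29 and 2.36 in the control libraries and 3.02 and 2.55 in CBX7-overexpressing cells, so both CBX7 libraries were above both controls, a difference that was not tested. The remaining sestrin gene, SESN3, was listed at no more than 0.15 TPM in any library.

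The apoptosis genes among the members were FAS, BBC3 and TP53INP1. FAS, the death receptor of FAS ligand (ENSG00000026103, chromosome 10 from 88990582 to 89015785), was at 52.6 and 55.1 CPM in control libraries and at 45.2 and 50.5 CPM in CBX7-overexpressing cells. Both CBX7 libraries were below both controls on this scale, while on the TPM scale the groups overlapped, with 33.18 and 39.29 TPM against 24.80 and 35.10 TPM. FAS had a log2 fold change of -0.17 ± 0.14 (standard error, 95% interval 0.702-fold to 1.12-fold, adjusted p = 0.951, edgeR). FAS counts were not whole in any library. The gene ACTA2 on the opposite strand shares 380 exonic bases with FAS and had between 106.87 and 158.2 counts, and no source states whether strand was used in counting, so reads in this overlap cannot be told apart.

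BBC3 encodes PUMA, a BH3-only protein that binds BCL2 family members (ENSG00000105327, chromosome 19 from 47220822 to 47232766). Its level was 3.62 and 4.84 TPM in control libraries and 4.31 and 4.09 TPM in CBX7-overexpressing cells, which put both CBX7 libraries between the controls. BBC3 had a log2 fold change of 0.07 (standard error 0.26, adjusted p = 0.968, edgeR). The log2 ratio of CBX7 to control was 0.47 for replicate 1 and -0.35 for replicate 2, the widest gap between replicate numbers among the members. TP53INP1, a stress protein that promotes p53 phosphorylation and autophagy (ENSG00000164938, chromosome 8 from 94925972 to 94949411), was at 0.82 and 0.96 TPM in control libraries and at 0.54 and 1.03 TPM in CBX7-overexpressing cells. The CBX7 libraries lay on either side of both controls. Its counts were 84, 82, 65 and 92, its log2 fold change was -0.13 with a standard error of 0.28 (adjusted p = 0.953, edgeR), and its 95% interval, from 0.564-fold to 1.49-fold, was the widest of the members on the log2 scale.

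On the CPM scale CBX7 replicate 1 was the lowest or highest of the 4 libraries for 8 of the 9 members, all but SESN2, and for 78.9% of all genes tested. On the TPM scale it was so for 6 members, SESN2 included, and for 75.8% of all genes. It was the lowest in each of these 6 members and in 8696 of the 14862 genes tested. In CPM it was the lowest of the 4 libraries for MDM2, MDM4, TP53INP1, SESN1 and FAS and the highest for BBC3, GADD45A and GDF15, whose deposited lengths are 1827, 1352 and 1200 bases. Those of the 5 genes where it was lowest are 1748 for MDM2, shorter than BBC3, and 3509 to 10050 bases for the others. By the length that counts and TPM imply, MDM2 was at 3960 to 4150 bases and BBC3 at 1605 to 1709, so MDM2 was then the longer. The log2 fold change of MDM2 was -0.09 after correction for deposited length and 0.03 by the length behind the TPM values. Over all genes averaging 100 counts or more, the median log2 ratio for replicate 1 was 0.41 for genes under 1000 bases and -0.34 for genes of 6000 bases or more, against -0.02 and 0.00 for replicate 2. MDM4, at 10050 bases the longest member, had a log2 ratio of -0.35 for replicate 1 and -0.07 for replicate 2. After correction for deposited length its log2 fold change was -0.02 in place of -0.20, and that of FAS was -0.15 in place of -0.17. By the length behind the TPM values FAS was at -0.21. In limma on TPM it was at -0.28 and -0.29 with a pseudocount of 1 and 0.1. SESN2 was at 0.07 in place of 0.19 in limma on TPM at a pseudocount of 1. The part of the trend in the differences of single members was not tested further. After the correction for deposited length no member passed an adjusted p of 0.05 in edgeR's test (lowest adjusted p 0.779), and none had an unadjusted p under 0.05, against 6.82% of all genes.

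**Figure D3:**
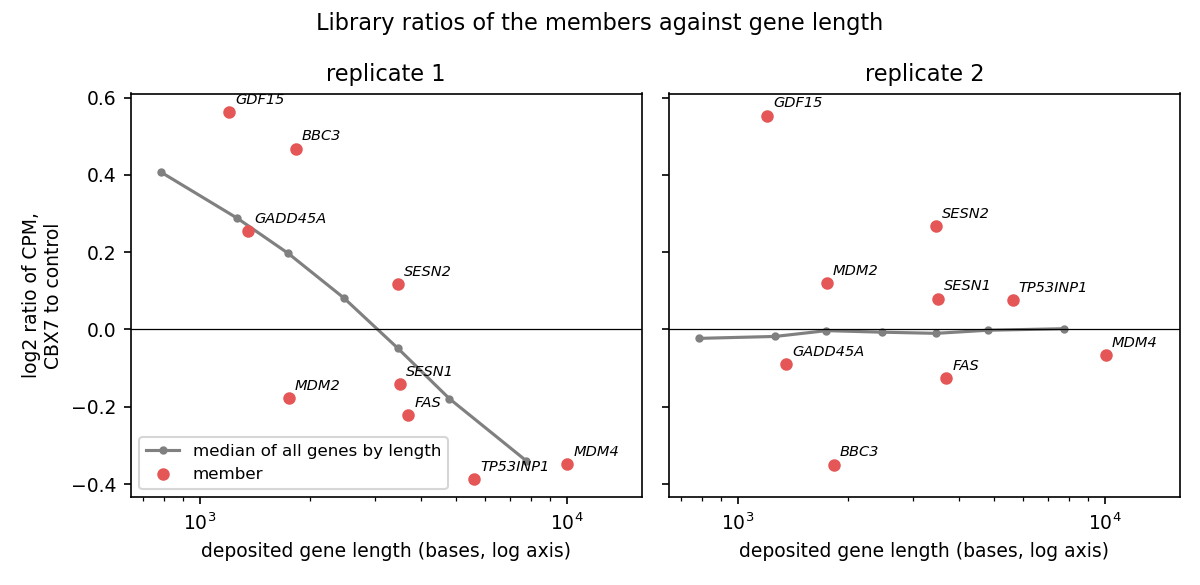
Log2 ratio of CPM, CBX7-overexpressing over control, for replicate 1 (left) and replicate 2 (right) against deposited gene length in bases (log axis), with the members as points and the median of all genes averaging 100 counts or more, by length, as a line. The line falls from 0.41 to -0.34 for replicate 1 and is flat for replicate 2, while GDF15 is at 0.56 and 0.55.

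Other p53 target genes were counted to place the 9 members, in a list of 45 genes that holds no CDK inhibitor and none of the members. Of these, 39 had enough counts to be tested and 0 passed an adjusted p of 0.05 in edgeR's test, against 0.0202% of all genes. DESeq2's Wald test called 0 as well, while a replicate block called 2. At an unadjusted p under 0.05 there were 3 of 39 (7.69%, against 4.74% of all genes), all of them higher in CBX7-overexpressing cells. They were PIDD1 and PHLDA3, of the apoptosis group, and BTG2, an antiproliferative gene, and PIDD1 and BTG2 are named after their values were seen. The median log2 fold change of the list was -0.01, with 19 genes above and 20 below 0, and the groups did not overlap for 33.3% of them, against 30.2% of all genes.

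PHLDA3, which encodes a repressor of AKT signalling, was at 14.6 ± 2.72 TPM in control cells and 21.3 ± 0.919 TPM in CBX7-overexpressing cells (mean ± SD, 2 libraries a group). The log2 difference of PHLDA3 was 0.64 ± 0.19 (± standard error, adjusted p = 0.776, edgeR). PIDD1, the scaffold of the caspase-2 activating PIDDosome, was at 12.4 ± 1.33 and 17.3 ± 0.962 TPM, a log2 fold change of 0.53 (standard error 0.14, adjusted p = 0.713, edgeR). With the replicate number as a block, in edgeR's test on all 4 libraries, both passed (adjusted p = 0.0156 for PHLDA3 and 0.049 for PIDD1) and were the 2 genes of the list called, where 2.43% of all genes were. With the block and the length correction the 2 called were PIDD1 and KITLG, against 2.77% of all genes. Without CBX7 replicate 2, 14 of the 39 passed, 6 of them lower, against 35.5% of all genes, and without CBX7 replicate 1 there were 2, PIDD1 and KITLG, against 2.59%. KITLG, the ligand of the KIT receptor, is also named after its values were seen. Its groups overlapped, and its log2 fold change was 0.37 with all libraries and no block (adjusted p = 0.951, edgeR), against 0.64 without CBX7 replicate 1. BTG2 was rare, at 0.51 ± 0.0141 and 0.72 ± 0.156 TPM, and had the highest log2 fold change of the list at 0.84 (standard error 0.32, adjusted p = 0.951, edgeR). SPATA18, named after its values were seen and also rare, had the lowest at -0.83 (standard error 0.43, adjusted p = 0.951, edgeR).

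By role, the feedback genes PPM1D, CCNG1, RCHY1 and COP1 had log2 fold changes between -0.22 (RCHY1, a ubiquitin ligase for p53) and 0.03 (CCNG1, a cyclin that recruits a phosphatase to MDM2). Of 15 apoptosis genes 12 were tested, with a median of -0.01 and a lowest value of -0.15 for TNFRSF10D, a decoy receptor of TRAIL. Of 11 growth arrest and differentiation genes 10 were tested, and among those averaging 50 counts or more the values ran from -0.22 for E2F7, a repressor of E2F targets, to 0.40 for NINJ1, a membrane rupture protein. The 5 repair genes ran from -0.26 for POLH, a translesion polymerase, to 0.16 for FBXO22. Of 10 metabolism, autophagy and lysosome genes 8 were tested, and among those averaging 50 counts or more the values ran from -0.07 for TIGAR to 0.38 for FDXR, the ferredoxin reductase of mitochondria. The highest mean level in the list was 390 TPM, and 36 of the 45 genes had a mean of at least 1 TPM.

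**Figure D4:**
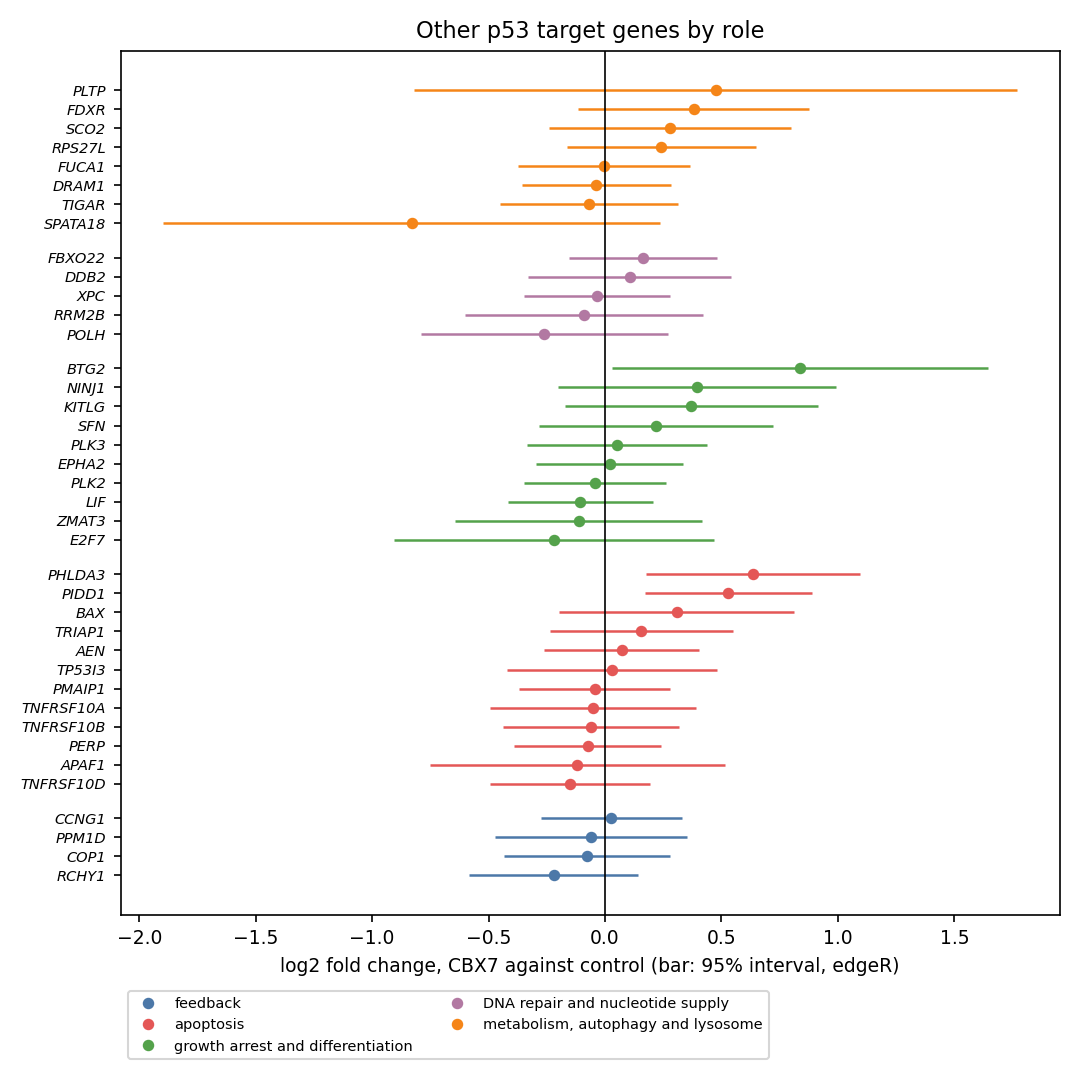
Log2 fold change between CBX7-overexpressing and control cells of the 39 tested genes of the wider p53 target list, grouped by role, with the 95% interval from edgeR as a bar. The points lie on both sides of 0 in every role, and the intervals of PIDD1, PHLDA3 and BTG2 exclude 0 before adjustment.

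CDKN1A, the CDK inhibitor most used as a p53 readout, was at 15.46 and 15.07 TPM in control libraries. In CBX7-overexpressing cells CDKN1A was at 17.27 and 21.88 TPM. Its groups did not overlap on the CPM scale either, as for 30.2% of all genes. Its log2 fold change was 0.43 with a standard error of 0.13, and its p was 0.0203 before and 0.853 after adjustment in edgeR's test. The p53 relatives, which can bind similar elements, differed in level. TP73 was at 6.85 and 8.53 TPM in control libraries and at 6.47 and 9.31 TPM in CBX7-overexpressing cells. On the CPM scale both CBX7 libraries were above both controls for TP73, with 27.2 and 30.7 against 22.7 and 24.6 CPM, and its log2 fold change was 0.29 (adjusted p = 0.951, edgeR). TP63 was at or near 0 in all libraries. Of the partners of the FAS receptor, the adaptor FADD was at 52.7 TPM on average with a log2 fold change of 0.13, CASP8, CASP10 and CFLAR had log2 fold changes between -0.22 and -0.11, none of the 4 past an adjusted p of 0.05 in edgeR's test, and FASLG, the ligand, was listed at 0 in every library. Of 8 ATF4-linked stress genes, 0 passed, against 0.0202% of all genes, and 0 had an unadjusted p under 0.05, against 4.74%. Their median log2 fold change was 0.06 with 6 values above 0, as were 7472 of the 14862 genes tested. TRIB3 was the highest of them at 0.26, and ATF4 itself was at 0.06.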

How the data were processed

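Total RNA of 2 control and 2 CBX7-overexpressing T24 libraries was sequenced on an Illumina HiSeq instrument. The authors deposited estimated counts of each gene in each library, of which 88.2% to 88.9% were whole, TPM values with group means, and a gene length. The authors also deposited their own comparison of the groups, as a fold (ratio), its log2 value, a p-value and its adjusted form, none of which was used. GEO's processing notes name cutadapt 1.9.1, HISAT2 2.0.1, HTSeq 0.6.1, DESeq2 and hg19, with no role. How values that are not whole arose is not given in the sources used here.

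Rounded counts passed edgeR's filterByExpr and TMM scaling, and glmQLFit and glmQLFTest of edgeR 4.0.16 under R 4.3.3 compared the conditions without covariates. P-values were adjusted by Benjamini-Hochberg over all 14862 genes tested. A standard error is the absolute log2 fold change over the square root of F, and 95% intervals use the t distribution with the total degrees of freedom of the fit. CPM values are TMM-normalized. Deposited TPM gave the levels. Libraries of a group differed by a chi-square per degree of freedom of 6.49 (control) and 59.7 (CBX7), so no library was a copy of another. The fits were first run on simulated data with the same spread in every library, in some runs with a length trend added to 1. That does not cover groups as unlike in spread as the control and CBX7 libraries here. Alternatives were upper-quartile scaling, size factors of DESeq2, the Wald test of DESeq2 1.42.0, no filter, a minimum of 10 counts in each library, the newer quasi-likelihood form, a replicate block, correction of each library for its loess trend (span 0.5) with deposited length, block with correction, TPM in limma 3.58.1 at a pseudocount of 1 or 0.1 among genes with at least 1 TPM in 2 libraries, an adjusted p under 0.01, and each library left out. A correction by the length behind the TPM values (count divided by TPM, scaled to the deposited lengths) was added after seeing the data.

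The genes named are the members, CBX7, CDKN1A, in each role of the wider list the largest rise and fall among genes averaging 50 counts or more, genes past an adjusted p of 0.05, and the 3 genes most like GDF15 (the member with the largest change) and MDM2. PIDD1, BTG2, KITLG, SPATA18, GATA3 and the genes of the smaller lists were named after their values were seen. The members and lists were chosen with earlier results of these data known. Of 60623 identifiers, 58516 (96.5%) are in GENCODE release 29 on GRCh38, which gave coordinates and overlaps and need not be the authors' annotation. Windows are from RefSeq.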

Additional observations from a re-analysis of the deposited data

How the results depend on the processing

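No member passed an adjusted p of 0.05 in any alternative fit to all 4 libraries, and the order of the 9 levels did not depend on the length used. Of 106 values of members in those fits, 96 kept their sign and 10 changed it, each of them close to 0. BBC3 was at -0.032 after the length correction, -0.021 with the replicate block and that correction, and -0.049 by the length behind the TPM values. GADD45A was at -0.038, -0.040 and -0.046 in the same fits and at -0.034 in limma on TPM at either pseudocount. MDM2 was at 0.028 and TP53INP1 at 0.001 by the length behind the TPM values. With 1 library left out, log2 fold changes ran from -0.211 to 0.157 for MDM2, -0.463 to 0.156 for TP53INP1, -0.144 to 0.085 for SESN1, -0.163 to 0.269 for BBC3 and -0.159 to 0.322 for GADD45A. For MDM4 they ran from -0.360 to -0.052, for FAS from -0.255 to -0.089 (without CBX7 replicate 1), for SESN2 from 0.141 to 0.246 and for GDF15 from 0.421 to 0.688, and the members called numbered from 0 to 3, the 3 being without CBX7 replicate 2. The count of all genes called, 3 as tested, was 67 by the Wald test of DESeq2, 265 without a filter, 28 by the length behind the TPM values, 1 at an adjusted p under 0.01, and from 45 to 5491 with 1 library left out. The replicate numbers are not said to mark a batch, and same-numbered libraries deviated together (correlation 0.305 across genes tested and 0.613 across those averaging 100 counts or more), but 2 pairs cannot establish that they are paired. The replicate block gave 361 genes, and 411 with the block and the length correction. In both fits 2 genes of the wider list were called, 0 without the block. That count ran from 0 to 14 with 1 library left out. The median of the wider list was -0.106 and -0.113 in limma on TPM at a pseudocount of 1 and 0.1, and from 0.007 to 0.030 with 1 library left out. The cause of these differences was not tested.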
